A study of Homo sapiens with 28 samples.

Results

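Metallothioneins are small proteins rich in cysteine that bind zinc and copper ions and, in excess, cadmium, and their genes are best known for being switched on by metals. The switch works through MTF1, a zinc-finger transcription factor that binds zinc and then attaches to short metal response elements upstream of its target genes. The best-known other target of MTF1 is SLC30A1, a transporter that moves zinc out of the cell, and some of the genes also respond to glucocorticoids and to oxidative stress.

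The 6 genes described here are MT1E, MT1F, MT1G, MT1H, MT1X and MT2A, taken by name from the 58219 genes of the table. The set was chosen by measured values of these libraries, since MT1X, MT1H and MT1E had been seen lower in knockout than in wild-type stem cells. For that reason every value from the stem cell libraries below is a description with no test. All 6 passed the filter of at least 1 TPM (a level per gene, corrected for transcript length and scaled to a fixed total per library) in at least 2 libraries, as did 27912 genes in all.

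RNA was measured in H9, an established human embryonic stem cell line, either wild type (WT) or SOX1-/- (KO), where SOX1 is a transcription factor of early neural progenitors. Cells were sampled undifferentiated (ES, day 0) and after 4 and 8 days of neural differentiation under 3 culture labels, written IWP2, CT0.4 and CT1.0. The first is the name of a known inhibitor of WNT secretion, while CT is not spelled out in the sources used here and its numbers carry no unit there. This gives 14 groups of 2 libraries. WT libraries carry the number 1 or 2 and KO libraries 26 or 48, and the 4 numbers are called lines below. The labels do not say whether a line is 1 clone or whether cultures were independent, so the p-values measure only the spread between these libraries.

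The day labels were checked on defining markers. POU5F1, a pluripotency factor, lay at 2400 to 2530 TPM in the ES libraries and at 0.82 to 61.3 TPM on days 4 and 8, and PAX6, a neural progenitor factor, at 0.378 to 1.49 TPM and at 4.23 to 406 TPM. SOX1 itself reached 84.1 and 98 TPM in WT CT1.0 on day 4 against 0.705 and 3.08 TPM in KO. It was called lower in KO in CT0.4 and CT1.0 on both days. In IWP2 on day 4 its libraries overlapped, at 0.907 and 0.99 TPM in WT and 0.41 and 1.14 TPM in KO, so its RNA does not check the genotype label there. The 4 WT libraries of CT0.4 and CT1.0 on day 4 stood apart, with 17694 to 18233 genes at 1 TPM or more against 18876 to 20338 in the other 24. For the member calls that use these 4, values are given below also after scaling each library by its median ratio to the others. For other genes and gene lists only unscaled values are given.

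All 6 genes lie on chromosome 16 of GRCh38 in the GENCODE 29 annotation, within 76 kb. MT2A (ENSG00000125148.6) occupies chr16:56608199-56609497 on the plus strand. MT1E (ENSG00000169715.14) follows at chr16:56625475-56627112 and MT1F (ENSG00000198417.6) at chr16:56657694-56660698, both on the plus strand. MT1G (ENSG00000125144.13) is the only one of the 6 on the minus strand, at chr16:56666731-56668065. Its start faces that of MT1H (ENSG00000205358.3), at chr16:56669814-56671129, across a gap of 1748 bases. MT1X (ENSG00000187193.8) closes the group at chr16:56682424-56684196.

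The upstream sequences are shown because the family is known for its metal response elements. Their part in the levels described below was not tested. RefSeq promoters, in build GRCh38.p14, were matched for 3 of the 6 members, MT1H, MT1X and MT2A, and not for MT1E, MT1F and MT1G. The core of the metal response element was searched as TGCACNC or TGCGCNC on both strands in the 250 bases before each RefSeq start. Matches are in capitals in the next lines, which run 5′ to 3′ on the plus strand, chr16:56669564-56669813 for MT1H and chr16:56682220-56682423 for MT1X, where the run stops at the first annotated exon.

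MT1H: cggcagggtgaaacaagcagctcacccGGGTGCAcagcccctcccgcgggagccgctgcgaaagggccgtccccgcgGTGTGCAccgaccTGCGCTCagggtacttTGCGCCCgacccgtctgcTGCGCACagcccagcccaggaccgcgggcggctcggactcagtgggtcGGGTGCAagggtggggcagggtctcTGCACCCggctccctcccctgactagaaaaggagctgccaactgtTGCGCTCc

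MT1X: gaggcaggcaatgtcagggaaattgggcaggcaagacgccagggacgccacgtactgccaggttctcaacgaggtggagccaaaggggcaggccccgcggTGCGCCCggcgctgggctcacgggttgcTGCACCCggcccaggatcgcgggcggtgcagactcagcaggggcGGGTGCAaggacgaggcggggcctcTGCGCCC

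The MT1H window held 8 matches, 5 on the strand of the gene and 3 on the other. MT1X held 4 matches, 3 and 1, and MT2A, whose window lies in an annotated first exon and is not printed, held 7, with 5 and 2. At least 1 match occurs in 24.8% of the 35116 promoters of the table, so a single match is common. As many matches as in MT1H, MT2A or MT1X, or more, were found in 0.0171%, 0.0313% and 0.37% of them. A match describes letters only and is not a bound site.

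**Figure D1:**
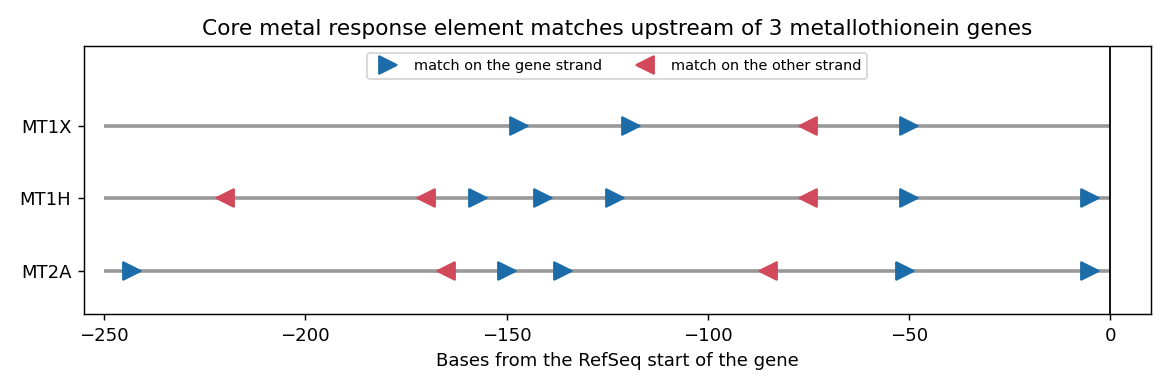
Positions of core metal response element matches in the 250 bases before the RefSeq start of MT2A, MT1H and MT1X, with the distance from the start in bases on the x axis and arrowheads for the strand. MT1H has 8 matches, MT2A has 7 and MT1X has 4, and all 3 genes have a match close to 50 bases before the start.

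The coding sequences are shown because the members are near copies of each other, which bears on how far their levels can be told apart. Over the 15 pairs of members, coding identity was 88.5 to 93.5%. MT1X, the highest of the 6 after differentiation, and MT1H, which was at 0 on day 8, differ at 13 of 183 coding bases, given in capitals.

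MT1X: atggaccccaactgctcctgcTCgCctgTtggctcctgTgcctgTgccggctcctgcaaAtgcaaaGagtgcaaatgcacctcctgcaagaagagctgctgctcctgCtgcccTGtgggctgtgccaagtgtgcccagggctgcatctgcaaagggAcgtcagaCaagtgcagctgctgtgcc

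MT1H: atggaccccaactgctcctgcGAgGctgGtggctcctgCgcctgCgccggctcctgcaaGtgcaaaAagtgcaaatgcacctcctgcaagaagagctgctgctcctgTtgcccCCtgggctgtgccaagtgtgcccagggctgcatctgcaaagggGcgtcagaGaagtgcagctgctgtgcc

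Across whole annotated transcripts, the share of 31-base stretches found in no other gene was 72.3% in MT1H and 76.7% in MT1G. It was 80.2% in MT1X, 84.4% in MT1E, 92.8% in MT2A and 96.8% in MT1F. Reads from the shared stretches are divided between copies by estimate, so the levels of MT1G and MT1H are the least certain. The family sum and their joint share of it are also given. The non-coding gene AC026461.1 overlaps MT1X on the same strand and was listed at 0 in all 28 libraries.

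In undifferentiated cells every member was lower in both KO lines than in both WT lines, with WT means 3.63 to 7.48 times the KO means. In bulk RNA, fewer cells with the transcript and less transcript per cell cannot be told apart. MT1G stood at 301 and 92.7 TPM in WT lines 1 and 2 and at 37.8 and 28.1 TPM in KO lines 26 and 48. MT1X stood at 267 and 105 TPM in WT and at 46.4 and 30.7 TPM in KO. The WT lines lay above the KO lines for both genes, yet WT line 1 was 3.24 times line 2 for MT1G and 2.54 times for MT1X.

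MT1H, the gene that faces MT1G, was at 66.4 and 28.5 TPM in WT ES cells and at 7.22 and 6.23 TPM in KO. MT2A, the most widely expressed human metallothionein gene, was at 23.5 and 10.04 TPM in WT and at 3.98 and 4.28 TPM in KO. For MT1E the values were 23.3 and 10.4 TPM in WT and 1.99 and 2.51 TPM in KO, the largest ratio of means at 7.48. MT1F, with 29.9 and 16.5 TPM against 7.57 and 5.19 TPM, had the smallest at 3.63.

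On the log2(TPM + 1) scale the KO minus WT difference in ES cells ran from -1.67 for MT1F to -2.53 for MT1H. The groups did not overlap for any of the 6, and 16.5% of all genes tested were likewise lower in both KO lines. The lower WT line was still 2.18 to 4.14 times the higher KO line. The spread between the WT lines was itself 1.81 to 3.24 times, in the same direction for all 6. The summed level of 5 pluripotency markers was 3810 to 3900 TPM in WT ES cells and 3960 to 3990 TPM in KO, while 5 neural markers summed to 398 to 490 TPM and 332 to 381 TPM. Their part in the metallothionein difference was not tested.

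The sum of the 6 genes was 710 and 263 TPM in WT ES cells, 105 and 77 TPM in KO ES cells and 26.98 to 153 TPM in day 4 libraries. On day 8 it was 8.24 to 81.8 TPM. Its order over the groups was led by WT ES, followed by KO IWP2 and the other IWP2 and CT0.4 groups of day 4, while the lowest was KO CT1.0 on day 8 with a mean of 13.1 ± 6.93 TPM (SD, n = 2). Of the 13 neighbouring pairs in this order, 7 overlapped in their libraries. For MT1X 10 of 13 and for MT1F 9 of 13 neighbours overlapped, so the middle of each order is not resolved.

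**Figure D2:**
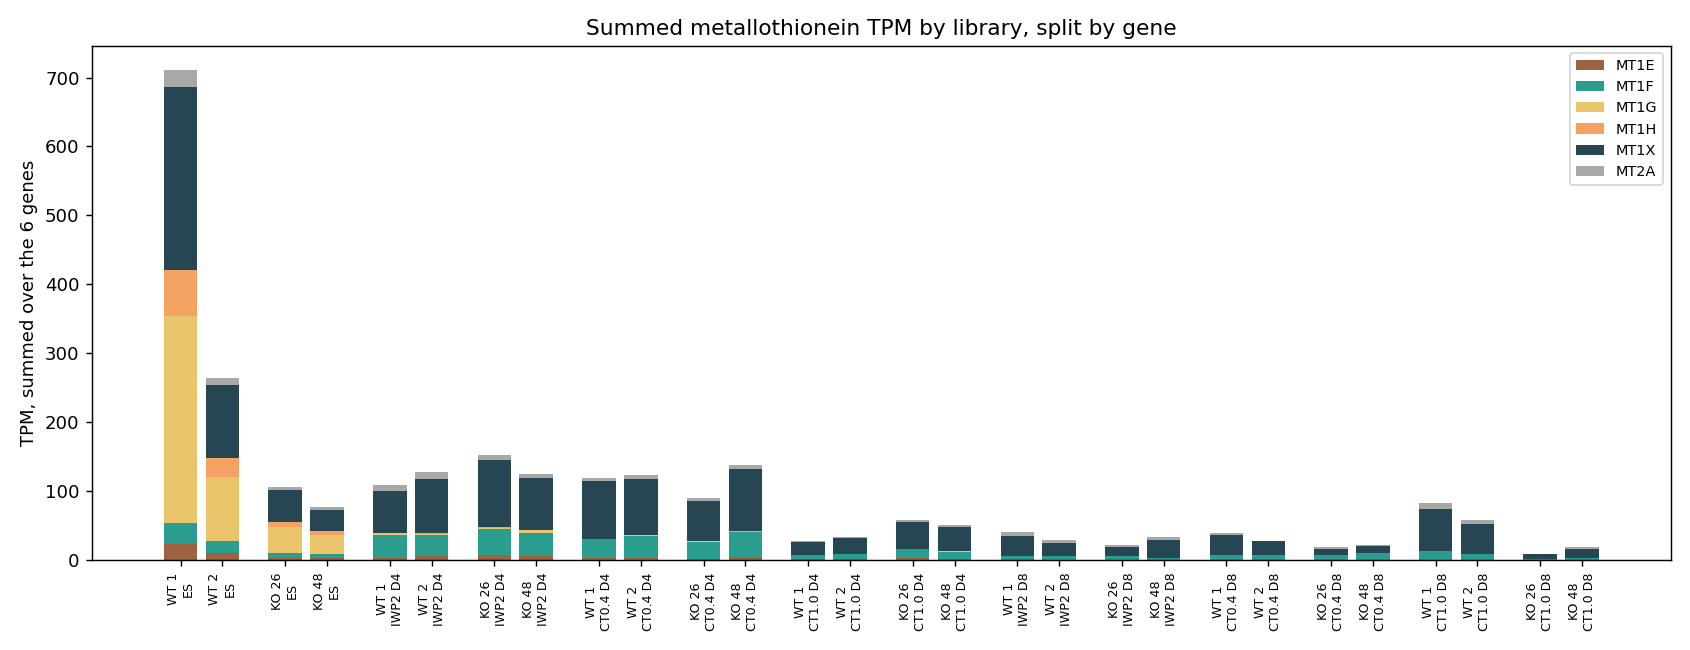
TPM of the 6 genes stacked for each of the 28 libraries, with genotype, line, label and day below each bar. MT1G and MT1H fill 42.9 to 51.7% of the ES bars and at most 3.62% of any later bar, where MT1X and MT1F fill most of it.

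The composition of the family differed between undifferentiated and differentiating cells. MT1G and MT1H together made up 46.1 and 51.7% of the member sum in WT ES cells and 42.9 and 44.6% in KO. In the 12 day 4 libraries they made up 0 to 3.62%, with a median of 1.34%, and on day 8 at most 1.7%. MT1X and MT1F made up 41.7 to 51.5% in ES cells, 84.8 to 96.8% on day 4 and 81.3 to 96.6% on day 8.

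MT1G was at most 4.33 TPM on day 4, below the lowest ES library at 28.1 TPM. It was at 0 in both WT CT1.0 libraries of day 4, and on day 8 only WT line 1 had a value above 0, at 0.69 TPM under IWP2 and at 0.255 TPM under CT0.4. MT1H was at most 2.13 TPM on day 4 against at least 6.23 TPM in ES cells, and it was listed at 0 in all 12 libraries of day 8. The log2 difference of day 4 from ES ran from -5.50 to -7.39 for MT1G in WT and from -3.26 to -4.32 in KO. Genes lower in both day 4 libraries than in both ES libraries made up 24.2, 30.8 and 35% of all genes tested in WT with IWP2, CT0.4 and CT1.0, and 24.8, 26.4 and 27.8% in KO.

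MT1F and MT1X were still expressed in every library of day 4. MT1F was at 32.3 and 30.2 TPM in WT IWP2 on day 4 and at 38 and 33.7 TPM in KO IWP2, above all 4 ES libraries. Its log2 difference from ES was 0.47 in WT and 2.34 in KO under that label. Genes higher in both IWP2 libraries of day 4 than in both ES libraries of the genotype were common. They made up 36.2% of all genes tested in WT and 34.9% in KO. MT1X was at 61.3 and 77.5 TPM in WT IWP2, below both WT ES libraries, and at 96.8 and 74.5 TPM in KO IWP2, above both KO ES libraries. In IWP2 the libraries of WT and KO overlapped for MT1X but not for MT1F. The KO minus WT difference of MT1F was 0.19 there and was not called in the fit described below. The share of all genes without such overlap was not counted. The log2 difference of MT1X from ES was -1.27 in WT and 1.15 in KO.

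**Figure D3:**
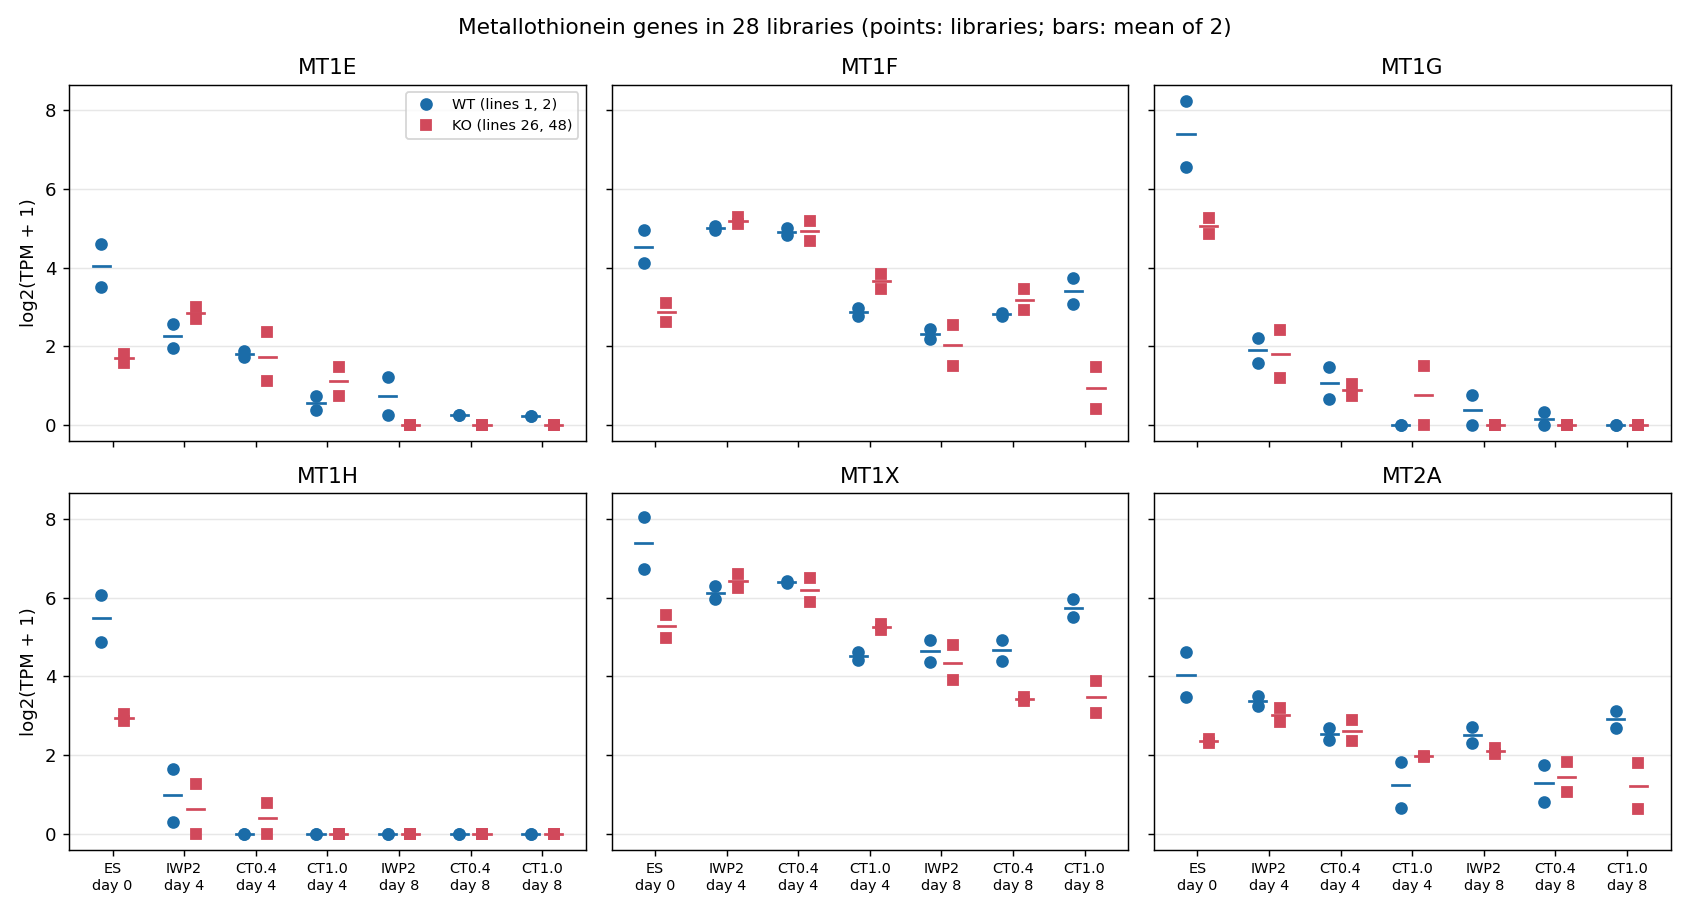
Level of each of the 6 genes as log2(TPM + 1) in the 7 culture conditions, with circles for WT and squares for KO libraries and a bar at the mean of the 2. MT1G and MT1H are high only in ES cells among these conditions, and MT1F, MT1X and MT2A show a wide gap between WT and KO in CT1.0 on day 8.

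Among labels on day 4, WT cells in CT1.0 had the least metallothionein RNA. MT1X was at 20.3 and 23.5 TPM with CT1.0, against 84.4 and 82.2 TPM with CT0.4 and against 61.3 and 77.5 TPM with IWP2. MT1F was at 5.82 and 6.94 TPM with CT1.0, against 27.5 and 31.1 TPM with CT0.4 and against 32.3 and 30.2 TPM with IWP2. Both genes had CT1.0 libraries below all others of WT on that day, and the share of all genes with that order was not counted.

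Differences were tested with limma on log2(TPM + 1), with p adjusted over all genes of a comparison and a call at adjusted p under 0.05. In WT on day 4, CT1.0 was lower than IWP2 for 5 of 6 members, where 17.2% of all genes tested were called lower. The differences were -2.14 for MT2A (SE 0.452, adjusted p = 0.00279), -2.13 for MT1F (SE 0.375, adjusted p = 0.000669) and -1.62 for MT1X (SE 0.394, adjusted p = 0.00746). MT1G differed by -1.90 (adjusted p = 0.0163) and MT1E by -1.71 (adjusted p = 0.00624). MT1H, at 0.226 and 2.13 TPM in IWP2 and at 0 in CT1.0, was not called.

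Against CT0.4, CT1.0 was lower on day 4 for MT1F by -2.04 and MT1X by -1.89 (adjusted p = 0.00259 and 0.00666), 2 of 6 members, where 4.47% of genes were called lower. No member was called by limma between CT0.4 and IWP2, where 13.1% of genes were and 1 member test had an unadjusted p under 0.05. The median over all genes tested was itself -0.219 in CT1.0 against IWP2. Scaling moved it to 0, and the 5 differences then ran from -1.29 for MT1X to -1.93 for MT2A, all still called. Against CT0.4 the scaled differences were -1.97 for MT1F and -1.80 for MT1X, also still called. Without WT line 1 none of the 8 WT calls between labels held, with differences from -2.01 to 1.90 and adjusted p from 0.0995, and without line 2 only 1 held.

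In KO cells CT1.0 was again the lowest label on day 4 for MT1F, MT1X and MT2A. MT1F was at 13.4 and 10 TPM in CT1.0 against 38 and 33.7 TPM in IWP2, a difference of -1.55 (SE 0.375, adjusted p = 0.0105). MT1E was at 1.80 and 0.672 TPM against 7.07 and 5.52 TPM, a difference of -1.75 (adjusted p = 0.00813). These were 2 of 6 members, where 8.54% of genes were called lower. Between CT0.4 and IWP2 and between CT1.0 and CT0.4 no member was called in KO by limma, where 4.8% and 1.78% of genes were, and 1 and 2 member tests had an unadjusted p under 0.05. Neither of the calls held without KO line 48, at -1.43 for MT1F and -1.53 for MT1E, and MT1E did not hold without line 26, at -1.96.

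On day 8 MT1F was the 1 member called between labels in KO. Its 2 libraries gave 6.56 and 9.97 TPM with CT0.4, 4.88 and 1.83 TPM with IWP2, and 0.324 and 1.76 TPM with CT1.0. CT1.0 was lower than CT0.4 by -2.25 (SE 0.375, adjusted p = 0.000258), where 18.5% of genes were called lower. The call of CT0.4 over IWP2 (1.16, adjusted p = 0.0432; 8.61% of genes called higher) did not hold without KO line 48, where the difference was 0.36. That of CT1.0 below IWP2 (-1.09, adjusted p = 0.048; 16.7% called lower) did not hold without line 26, where it was -0.04, nor after scaling, where it was -0.93. Both of these calls were also lost without either WT line, at the same differences, since the WT libraries enter the shared spread, as was that of MT1F on day 4.

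In WT on day 8, CT1.0 had the highest mean of the labels for the same 3 genes, having had the lowest on day 4. For MT2A its libraries overlapped those of IWP2, at 5.59 and 3.90 TPM. MT2A was at 7.62 and 5.49 TPM in CT1.0 against 2.37 and 0.743 TPM in CT0.4, a difference of 1.63 (SE 0.452, adjusted p = 0.021). It was the 1 member called, where 4.2% of genes were called higher, and the call did not hold without either WT line, at 1.90 without line 1 and 1.36 without line 2, nor without either KO line, at 1.63. MT1X was at 61.5 and 44.7 TPM in CT1.0, against 29.4 and 20.1 TPM with CT0.4 and against 29.5 and 19.6 TPM with IWP2. These libraries did not overlap, but the MT1X differences were not called. No member was called between CT1.0 and IWP2 or between CT0.4 and IWP2, where 10.8% and 12.2% of genes were called, and 2 and 1 member tests had an unadjusted p under 0.05.

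From day 4 to day 8, members fell under every label in both genotypes except in WT with CT1.0. In WT IWP2, MT1F fell from 32.3 and 30.2 TPM to 3.58 and 4.46 TPM, by 2.69 on the log2 scale (SE 0.375, adjusted p = 0.000146). MT1X fell from 61.3 and 77.5 TPM to 29.5 and 19.6 TPM, by 1.48 (adjusted p = 0.0179). MT1E fell by 1.54 (adjusted p = 0.0172), so 3 of 6 members fell where 4.85% of genes did.

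WT CT0.4 gave the same 3 members, where 5.08% of genes fell. MT1F fell by 2.11, MT1X by 1.73 and MT1E by 1.56 (adjusted p = 0.000422, 0.0032 and 0.00842). All genes tested had a median of 0.185 here, and after scaling MT1F differed by -2.39, MT1X by -2.03 and MT1E by -1.7, all still called. In KO IWP2, 4 of 6 members fell, where 2.85% of genes did. MT1F fell by 3.17 (SE 0.375, adjusted p = 3.2e-05), MT1E by 2.86 (adjusted p = 0.000198), MT1X by 2.08 (adjusted p = 0.00247) and MT1G by 1.81 (adjusted p = 0.037). Here MT1E went from 7.07 and 5.52 TPM to 0, and MT1G from 1.31 and 4.33 TPM to 0. Over all labels MT1E was at 0 in the 6 KO libraries of day 8. It reached 1 TPM in 1 of the 12 libraries of that day, so its falls ended near the floor.

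In KO CT0.4, 3 of 6 fell, where 7.07% of genes did. MT1X fell from 58.2 and 90.2 TPM to 9.44 and 10.2 TPM, a drop of -2.77 on the log2 scale (SE 0.394, adjusted p = 5.3e-05). MT1F fell by 1.75 (adjusted p = 0.00227) and MT1E fell by 1.74 (adjusted p = 0.00446). In KO CT1.0, 2 of 6 fell, where 6.87% of genes did. MT1F fell from 13.4 and 10 TPM to 0.324 and 1.76 TPM, a difference of -2.72 (adjusted p = 0.00016). MT1X fell from 39.1 and 35.5 TPM to 7.36 and 13.8 TPM, a difference of -1.78 (adjusted p = 0.00693).

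WT CT1.0 went the other way. MT1X rose from 20.3 and 23.5 TPM to 61.5 and 44.7 TPM, by 1.23 on the log2 scale (SE 0.394, adjusted p = 0.0451). MT2A rose from 0.576 and 2.51 TPM to 7.62 and 5.49 TPM, by 1.67 (SE 0.452, adjusted p = 0.0185). These were 2 of 6 members, where 12.2% of genes rose, and MT1F, from 5.82 and 6.94 TPM to 12.5 and 7.42 TPM, was not called. The median of all genes was 0.172, and after scaling MT2A differed by 1.51 (adjusted p = 0.0386) and MT1X by 0.96 (adjusted p = 0.142), which is not a call. Over all alternatives tried, adjusted p ran from 0.021 to 0.478 for MT1X and from 0.0185 to 0.51 for MT2A.

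Cell type markers moved over the same days, between which 4.16 to 19.7% of all genes were called higher and 2.45 to 7.07% lower. Neuronal markers rose in 2 to 4 of 4 under every label and genotype, with medians of 1.14 in WT IWP2 to 2.17 in WT CT1.0, and pluripotency markers fell in 3 of 5 with CT0.4 and CT1.0 and in 1 of 5 with IWP2, in both genotypes. The neuronal list summed to 85.9 to 155 TPM in day 4 libraries and to 127 to 727 TPM in day 8 libraries, highest in WT CT1.0. Their part in the metallothionein changes was not tested.

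Calls over time depended on the lines in WT. Without WT line 1 none of the 8 WT calls held, at -2.51 to 0.90 on the log2 scale with adjusted p from 0.0504, and without line 2 only the rise of MT2A did. Of the 9 KO calls 6 held without line 26 and 6 without line 48, with the lost ones at -2.41 to -1.30 and at -2.26 to -1.13, and that of MT1G in IWP2 was also lost without either WT line, at -1.81. Without either KO line the WT rises of MT1X and MT2A, unchanged in size, had adjusted p of 0.0806 and 0.0594 or more, because those libraries also enter the shared spread.

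After differentiation began, a KO against WT difference was called for members only in CT1.0 on day 8, among the 6 groups tested. WT cells of that group had 72.1 and 79.4 TPM of SOX1 RNA, the most of any group of that day. WT CT1.0 on day 4, where no member was called between KO and WT, had more, at 84.1 and 98 TPM. The part of the SOX1 level was not tested. MT1X was at 61.5 and 44.7 TPM in WT and at 7.36 and 13.8 TPM in KO. MT1F was at 12.5 and 7.42 TPM in WT and at 0.324 and 1.76 TPM in KO. MT2A was at 7.62 and 5.49 TPM in WT and at 0.556 and 2.46 TPM in KO. Both KO lines lay below both WT lines for each of these 3 genes, and the share of all genes with such an order was not counted here.

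The KO minus WT difference was -2.48 for MT1F (SE 0.375, adjusted p = 0.000485), -2.26 for MT1X (SE 0.394, adjusted p = 0.00131) and -1.69 for MT2A (SE 0.452, adjusted p = 0.0187). Thus 3 of 6 members were called lower, where 9.96% of all genes tested were, and their median was -0.96 against -0.02 over all genes. MT1G and MT1H were at 0 in all 4 libraries, and MT1E was at 0.164 and 0.179 TPM in WT and at 0 in KO. The calls rested on the lines. Without WT line 1 the differences were -2.14, -2.04 and -1.48 and none was called (adjusted p = 0.0865, 0.0696 and 0.146), and without KO line 26 MT1X was at -1.85 and MT2A at -1.11, both uncalled. Without WT line 2 MT2A was at -1.89 (adjusted p = 0.0623). With only these 4 libraries fitted, adjusted p was 0.214 for MT1F, 0.194 for MT1X and 0.267 for MT2A. Over all alternatives the highest adjusted p was 0.214 for MT1F, 0.194 for MT1X and 0.4 for MT2A.

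The same comparison with limma gave no call for any member in the other 5 groups of days 4 and 8, where 1 of 30 member tests had an unadjusted p under 0.05. In CT1.0 on day 4 the values ran the other way, with MT1X at 39.1 and 35.5 TPM in KO against 20.3 and 23.5 TPM in WT, a difference of 0.75 with a 95% interval from -0.09 to 1.58, where 14.9% of genes were called. MT1F and MT2A differed by 0.78 and 0.74, also uncalled. The median of all genes was 0.195 here, and after scaling MT1X, MT1F and MT2A differed by 0.49, 0.54 and 0.59. In CT0.4 on day 8 MT1X was at 9.44 and 10.2 TPM in KO against 29.4 and 20.1 TPM in WT, a difference of -1.23 (adjusted p = 0.261), where 0.416% of genes were called. In IWP2, where 0.043% of genes were called on day 4 and 0.0609% on day 8, the 3 genes differed by -0.40 to 0.30. In CT0.4 on day 4, with 4.24% called, they differed by -0.20 to 0.09, and after scaling MT1F and MT2A changed sign, to -0.175 and -0.0784. With only the libraries compared in the fit, 1 of these 30 tests was a call, MT1E in CT0.4 on day 8, with 0.19 TPM in both WT libraries and 0 in both KO libraries, a difference of -0.25 (adjusted p = 0.0398). Averaged over the labels of a line, none of the 12 member tests was called, where 0.856% of genes were on day 4 and 0% on day 8, and 2 of the 12 had an unadjusted p under 0.05.

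**Figure D4:**
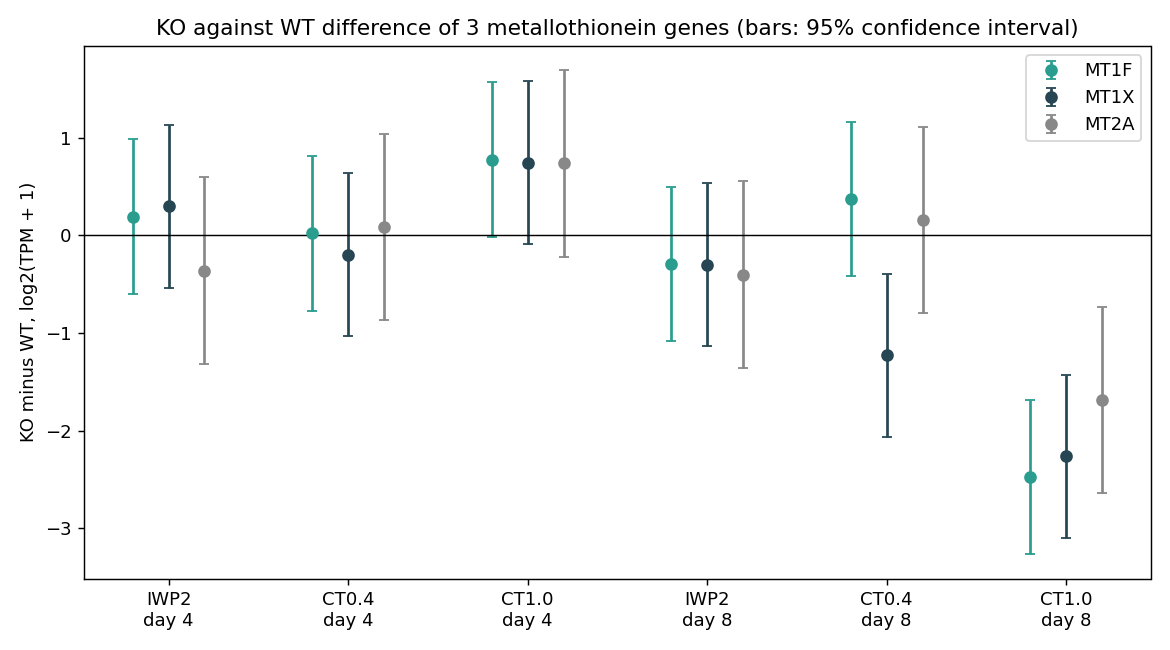
KO minus WT difference in log2(TPM + 1) of MT1F, MT1X and MT2A for each label on days 4 and 8, with bars for the 95% confidence interval of the fit. In CT1.0 on day 8 the differences of -2.48, -2.26 and -1.69 have intervals below 0, while on day 4 the same label gives 0.78, 0.75 and 0.74 with intervals that include 0.

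Whether the KO difference itself changed between days was tested as an interaction. In CT1.0 it moved between day 4 and day 8 by -3.25 for MT1F (SE 0.53, adjusted p = 0.00248), by -3.01 for MT1X (adjusted p = 0.00538) and by -2.43 for MT2A (adjusted p = 0.029). These were 3 of 6 members, where 6.67% of genes were called lower, with a member median of -1.61 and a median of -0.29 over all genes. After scaling, which took the latter to -0.01, the 3 values were -2.96, -2.65 and -2.21, and MT2A was no longer called (adjusted p = 0.0634). Without WT line 1 none was called, at -2.80, -2.68 and -1.64, and MT2A was uncalled without any 1 of the 4 lines, at -3.21 to -1.64. MT1F was at -3.70 without WT line 2 (adjusted p = 0.051) and MT1X at -2.53 without KO line 26 (adjusted p = 0.122). Over all alternatives adjusted p ran from 0.00248 to 0.166 for MT1F, from 0.00335 to 0.132 for MT1X and from 0.029 to 0.324 for MT2A.

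Between labels on day 8, the KO difference of MT1F was lower in CT1.0 than in CT0.4 by -2.85 (adjusted p = 0.00802) and than in IWP2 by -2.18 (adjusted p = 0.0339). It was the 1 member called in each, where 3.05% and 2.31% of genes were called lower. MT1X gave no call for either. Neither MT1F value was called without WT line 1, at -2.48 and -1.72, or without line 2, at -3.22 and -2.65, and the second was uncalled without KO line 26, at -1.13. The other 6 interactions tested called no member, with 1 of 36 member tests at an unadjusted p under 0.05. Of all genes, they called 1.34%, 5.09% and 0.297% between labels on day 4 (CT0.4 against IWP2, CT1.0 against IWP2, CT1.0 against CT0.4) and 0.147% between CT0.4 and IWP2 on day 8. Between days they called 0.0537% in IWP2 and 0.838% in CT0.4.

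The cells of CT1.0 on day 8, where 9.96% of all genes were called lower in KO, also differed in neural markers. Of 5 neural progenitor markers 4 were lower in KO, SOX1 among them, and the list summed to 2680 and 2950 TPM in the WT libraries and to 1290 and 1560 TPM in KO. Of 4 neuronal markers 3 were lower in KO, with sums of 599 and 727 TPM against 127 and 297 TPM. The 4 astrocyte markers summed to 3.53 and 7.1 TPM in WT and to 2.36 and 2.65 TPM in KO, with none called. Of 5 surface ectoderm markers 2 were higher in KO, where 4.34% of all genes were, at sums of 69.5 to 89.1 TPM against 43.4 to 52.7 TPM. Of 4 neural crest markers 2 were higher in KO, while the list summed to 87.4 to 89.3 TPM in KO and 112 to 117 TPM in WT. The part of these cells in the metallothionein difference was not tested.

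Genes of zinc handling were called in both directions in this comparison. Of 25 such genes 22 were tested, and 1 was higher and 4 were lower in KO, where 4.34% and 9.96% of all genes were, with a median of -0.23 against -0.02 over all genes. MTF1 was at 4.60 and 5.18 TPM in WT and at 3.31 and 4.38 TPM in KO, a difference of -0.29 (adjusted p = 0.587). SLC30A1 was at 8.38 and 6.12 TPM in WT and at 5.03 and 4.87 TPM in KO, a difference of -0.46 (adjusted p = 0.223). Both had lower values in KO lines, without a call.

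The largest called differences of the list were in genes that bring zinc into the cytosol. SLC39A8 was higher in KO by 0.94 (adjusted p = 0.0179), and SLC39A3 and SLC39A14 were lower by -0.77 and -0.59 (adjusted p = 0.00185 and 0.021). SLC39A1, the most abundant uncalled gene of the list, differed by -0.11 (adjusted p = 0.287). None of 8 copper genes was called, with a median of 0.02. Of 5 tested genes that flank the cluster none was called either, and NUDT21 differed by -0.18 (adjusted p = 0.465).

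Other stimuli known to act on the family have target genes of their own. Of all genes tested in CT1.0 on day 8, 4.34% were called higher and 9.96% lower in KO. Of 7 tested glucocorticoid genes 2 were lower in KO, ZBTB16 by -1.14 (adjusted p = 0.000495) and FKBP5, a common readout of the hormone receptor, by -0.45 (adjusted p = 0.0125). Of 10 oxidative stress genes FTL, the ferritin light chain, was higher by 0.45 (adjusted p = 0.00884) and SRXN1 was lower by -0.61 (adjusted p = 0.0298). Of 10 genes induced by low oxygen 4 were higher and 1 was lower, with a median of 0.86, where 4.34% of all genes were called higher. On day 4 in CT1.0, 9 of the same 10 were higher in KO, with a median of 1.59, where 12.4% of all genes were. Among the day 8 calls, LDHA and BNIP3 were higher in KO by 1.33 and 1.19 (adjusted p = 0.00573 and 0.00326). SLC2A1 was lower on day 8 by -1.47 (adjusted p = 0.00296).

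In the interaction of day and genotype in CT1.0, 6.67% of all genes tested were called lower, with a median of -0.29. Scaling shifted this median by 0.28, and the list values that follow are unscaled. The zinc list had 2 of 22 genes lower and a median of -0.23, close to that of all genes. The copper list had none called. The glucocorticoid list had 4 of 7 lower, PER1 by -1.79 (adjusted p = 0.00789), DUSP1 by -1.47 (adjusted p = 0.00389) and ZBTB16 by -0.87 (adjusted p = 0.0397) among them. The low oxygen list had 3 of 10 lower and the oxidative list 1 of 10, NFE2L2, by -0.80 (adjusted p = 0.0179). NUDT21 was the 1 of 5 flanking genes called, at -0.75 (adjusted p = 0.0248). It lies at chr16:56429133-56452199, farther from the cluster than OGFOD1 and BBS2, which were not called.

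The other genes of the family were near absent. Of 11 further metallothionein genes and pseudogenes only MT1A passed the filter, above 0 in 4 libraries and at most 1.98 TPM. MT3, a form best known from brain, was at most 0.629 TPM, and MT1M at most 0.357 TPM. MT1DP reached 6.56 TPM, MT1IP 4.14 TPM, MT4 3.08 TPM and MT1JP 3.05 TPM, each in 1 library and at 0 in the others. MT1CP and MT1HL1 were at 0 in all libraries.

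The members did not share a single pattern. Over 28 libraries of 14 groups, which share lines and culture, Pearson r of log2(TPM + 1) was 0.942 between MT1G and MT1H and 0.814 between MT1F and MT1X. It was 0.27 between MT1F and MT1H. Over the 24 libraries of days 4 and 8, where MT1H was mostly at 0, MT1F and MT1X stayed at 0.843 while MT1G and MT1H were at 0.395. These values are a description, with no test.

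Of 14246 other genes, the 8 whose log2 level was most like the mean of the 6 were DDT, FHL2, SIRT1, GPC4, FRAT2, HLA-DRA, LARP7 and RIMKLA, with r from 0.859 to 0.905 over the 28 libraries. DDT, a tautomerase related to the cytokine MIF, had r of 0.905, and of 0.861 over days 4 and 8. It was at 226 and 206 TPM in WT ES cells, 201 and 193 TPM in KO ES cells and 95.7 to 150 TPM later. LARP7, a protein of the 7SK RNA complex, had the highest value of the 8 over days 4 and 8, 0.894. GPC4, a proteoglycan of the cell surface, was at 116 to 139 TPM in ES libraries and at 3.67 to 58.8 TPM later.

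SLC30A1 had r of 0.752 over 28 libraries and 0.735 over days 4 and 8, and the number of genes with an r as high was not counted. Its ES libraries overlapped, unlike those of the 6 members, at 11.88 and 8.16 TPM in WT and 10.35 and 5.81 TPM in KO. MTF1 had r of -0.20 over 28 libraries and 0.402 over days 4 and 8, with 3.01 and 3.08 TPM in WT ES cells and 4.69 and 4.96 TPM in KO ES cells. MTF1 RNA was thus higher in both KO ES lines than in both WT ES lines, as were 18.6% of all genes tested. The activity of MTF1, and its part in the metallothionein difference, was not tested.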

How the data were processed

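The authors deposited gene-level TPM values (scaled for transcript length and to a fixed total) of poly(A) RNA for 58219 genes in 28 libraries. Tools and build named in the submitters' processing notes are Salmon 0.8.2, CASAVA 1.7 and hg38, while the role of each tool and the annotation release are not given in the sources used here. Read depth cannot be recovered from TPM, and the precision from counting is thus unknown. The labels name a pair of sequencing formats without saying which library had which, so no batch term was fitted.

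Genes with at least 1 TPM in at least 2 libraries (27912) entered a limma fit (version 3.58.1, R 4.3.3) on log2(TPM + 1), with 1 mean per group, an intensity trend, and 14 residual and 2.76 prior degrees of freedom. Fold changes on this scale understate those of low genes. Benjamini-Hochberg adjustment ran within each of 35 comparisons over all genes tested, and the 7 that use ES libraries were described only. Line means left 6 residual degrees of freedom. An exact permutation test of 2 against 2 libraries cannot go below 0.333 and was not used. Numbers of WT and KO libraries are not shared, so the block for a line number rests on the number alone. The script was tested on simulated data.

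The members and gene lists were chosen with earlier results of these data known. All 6 members are described in every comparison. From a list, up to 3 called genes with the largest difference and the most abundant uncalled gene could be named, MTF1 and SLC30A1 always, and the 8 genes most correlated with the members' mean. GENCODE 29 held 55050 of the IDs in the same version and 57881 in any version.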

Additional observations from a re-analysis of the deposited data

Results flagged for a closer look

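In 5 of 54 member tests the KO minus WT difference in log2(TPM + 1) was itself different between days or labels (limma, Benjamini-Hochberg adjustment over all genes). In CT1.0 it moved from day 4 to day 8 by -3.25 for MT1F, by -3.01 for MT1X and by -2.43 for MT2A, with adjusted p of 0.00248, 0.00538 and 0.029. On day 8 the difference of MT1F was lower in CT1.0 than in CT0.4 by -2.85 and than in IWP2 by -2.18, with adjusted p of 0.00802 and 0.0339. None of the 5 was called when WT line 1 was left out. Groups hold 2 libraries each, so no library could be tested for standing apart from its group.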

How the results depend on the processing

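Leaving out 1 line leaves 1 library in each group of its genotype, whose spread is then taken from the other groups. Members called numbered 3 for KO against WT (0 to 3 without 1 line), 8 for labels in WT (0 to 8), 5 for labels in KO (2 to 3), 17 for day 8 against day 4 (8 to 12) and 5 for the interactions (0 to 4), and 0 for line means throughout. With only the libraries compared in the fit these counts were 1, 3, 0, 4 and 0. The 1 was MT1E in CT0.4 on day 8, not among the 3, while the 3 and the 4 were all among the calls above. For labels in KO the count was 3 with a pseudocount of 0.1, with no filter, with no intensity trend and with a replicate block for the line number. The block left the other counts at 3, 8, 17 and 5. The difference between the 2 lines of a group was taken for each gene and correlated between groups of the same genotype. These correlations ran from -0.0937 to 0.0783 in WT and from -0.0572 to 0.204 in KO. They were over 0.1 in 0 and 8 of 21 pairs of groups. Not every pair passed, so the number was not taken to pair samples. Under the block MT1F on day 8 in KO had adjusted p of 0.0588 for CT0.4 against IWP2 and 0.0639 for CT1.0 against IWP2. Fitting without the ES libraries, chosen after seeing the data, gave 3, 10, 6, 18 and 6.

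The values that changed sign were all uncalled KO minus WT differences. Median-ratio scaling took MT1F and MT2A in CT0.4 on day 4 to -0.175 and -0.0784. Without 1 line, MT1F ran from -0.243 to 0.281 in CT0.4 on day 4 and from -0.819 to 0.233 in IWP2 on day 8. MT1X ran from -0.509 to 0.113 in CT0.4 on day 4 and from -0.75 to 0.151 in IWP2 on day 8. MT2A ran from -0.173 to 0.349 in CT0.4 on day 4, from -0.316 to 0.634 in CT0.4 on day 8, and from -0.131 to 0.44 in line means of day 4. The cause was not tested.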
